A study of Homo sapiens with 6 samples.

Results

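The control small RNA library of MRC5 cells is described here: how abundant each mature miRNA was, which seed families and hairpin arms held the reads, and which miRNAs of other tissues were missing or near the limit of counting. MRC5 is a fibroblast line derived from human fetal lung. Per the labels, the cells are WT, the control culture was given DMSO (the usual solvent for small compounds) and RNA was taken at 48 h, so that "untreated" means solvent without TGF-β1 or luteolin. The library was chosen by its label and by no measured value. It is 1 of 6 libraries in the series, which profiled mRNA and miRNA after control, TGF-β1 or luteolin + TGF-β1 treatment with 1 library each. With 1 library there is no replicate check and no test between groups, and no other library is compared with it. Each interval below is an exact (Clopper-Pearson) 95% interval that covers counting error only.

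A miRNA is cut from a hairpin transcript first by Drosha and then by Dicer, which leaves a short duplex of a 5p and a 3p strand. One strand is usually kept in an Argonaute protein and the other is degraded. The kept strand pairs with messenger RNAs mainly through its seed, the bases near its 5′ end, so miRNAs with the same seed form a family with overlapping targets. In lung fibroblasts the miR-29 family is known for repressing collagen mRNAs, miR-21-5p for a link to fibrosis, and miR-143 and miR-145 for their place in mesenchymal and smooth muscle cells.

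The sequences of the most abundant miRNAs are shown first because 4 seeds among them held most of the library. They are RefSeq mature sequences on GRCh38.p14, written 5′ to 3′, with the seed (bases 2 to 8) in capitals. The miR-29 seed AGCACCA was shared by these members.
miR-29a-3p: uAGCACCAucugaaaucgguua
miR-29b-3p: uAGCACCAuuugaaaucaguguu
miR-29c-3p: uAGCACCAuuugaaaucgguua
The let-7 members differ outside their shared seed.
let-7a-5p: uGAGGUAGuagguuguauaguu
let-7f-5p: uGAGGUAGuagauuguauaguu
let-7i-5p: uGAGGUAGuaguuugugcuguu
The other large groups were those of miR-125 and miR-15/16.
miR-125b-5p: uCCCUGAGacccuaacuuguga
miR-125a-5p: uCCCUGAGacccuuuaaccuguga
miR-16-5p: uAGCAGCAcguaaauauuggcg
miR-15b-5p: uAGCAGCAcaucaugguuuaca

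The library held 22277636 counts over 1853 listed mature miRNAs, of which 1355 had at least 1 count and 498 had none. Levels are given as counts, as a share of all counts, or as CPM, the count scaled to a library of 1e+06 miRNA counts. Mature miRNAs are close to the same length (17 to 27 bases, median 22), so levels need no length correction. Adapter ligation in small RNA kits is known to favour some RNA ends, and its part in the order of the miRNAs was not tested. Levels spanned more than 6 orders of magnitude, from 1 count to 3465180 counts. The 71 entries at 1000 CPM or more stood beside 334 at 10 CPM or more and 563 at 1 CPM or more. A further 485 entries had only 1 to 3 counts. A count of 0 allows a level of up to 3 counts, or 0.135 CPM, as a one-sided limit, and up to 0.166 CPM by the two-sided exact interval.

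**Figure D1:**
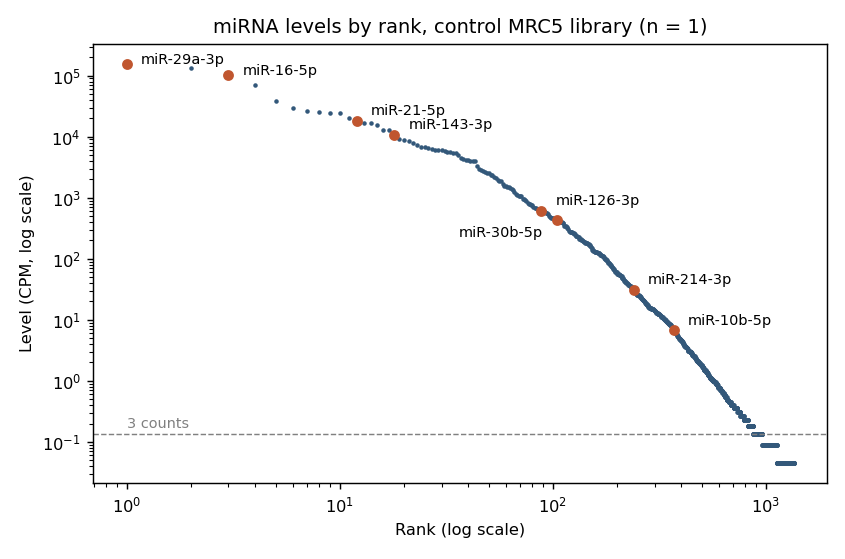
Level of each miRNA with a count (CPM, log axis) against its rank (log axis) in the control library, 1 point per miRNA, with 8 named miRNAs in orange and the level of 3 counts dashed. The curve starts at miR-29a-3p with 155545 CPM and 485 points lie at or under the dashed line.

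A few miRNAs held most of the counts. The most abundant was miR-29a-3p with 3465180 counts, 15.6% of the library (15.54 to 15.57). It was followed by miR-125b-5p with 2973897 counts (13.3%), miR-16-5p with 2309146 (10.4%) and let-7a-5p with 1550729 (6.96%). These 4 held 46.2% of the counts, and 5 entries were enough to pass 50%. The 10 most abundant entries held 63.1%, the 25 most abundant 81.1% and the 100 most abundant 97.7%. Counting error is small against these differences, with an interval no wider than 0.0151 percentage points to either side for any of the 25 most abundant entries.

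Below the leading 4 the levels declined gradually. let-7f-5p took 3.84%, let-7i-5p 2.92%, miR-29b-3p 2.63% and miR-221-3p 2.56%. miR-199a-3p, of a miRNA known in mesenchyme, took 2.48%, and miR-199b-3p had the same count of 551942. miR-93-5p (446420 counts) and miR-25-3p (199250 counts) come from the same stretch of chromosome 7 inside the replication gene MCM7. miR-21-5p, one of the miRNAs most studied in fibrosis, was in rank 12 with 410340 counts (1.84%). The rest of the 25 most abundant were miR-103a-3p and miR-103b (1.70% each), miR-26a-5p (1.54%), miR-191-5p, miR-100-5p (1.29% each), miR-143-3p (1.08%), let-7e-5p (0.919%), miR-125a-5p (0.859%), miR-10a-5p (0.795%), miR-23b-3p (0.738%), and miR-7-5p and miR-3529-3p (0.683% each).

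**Figure D2:**
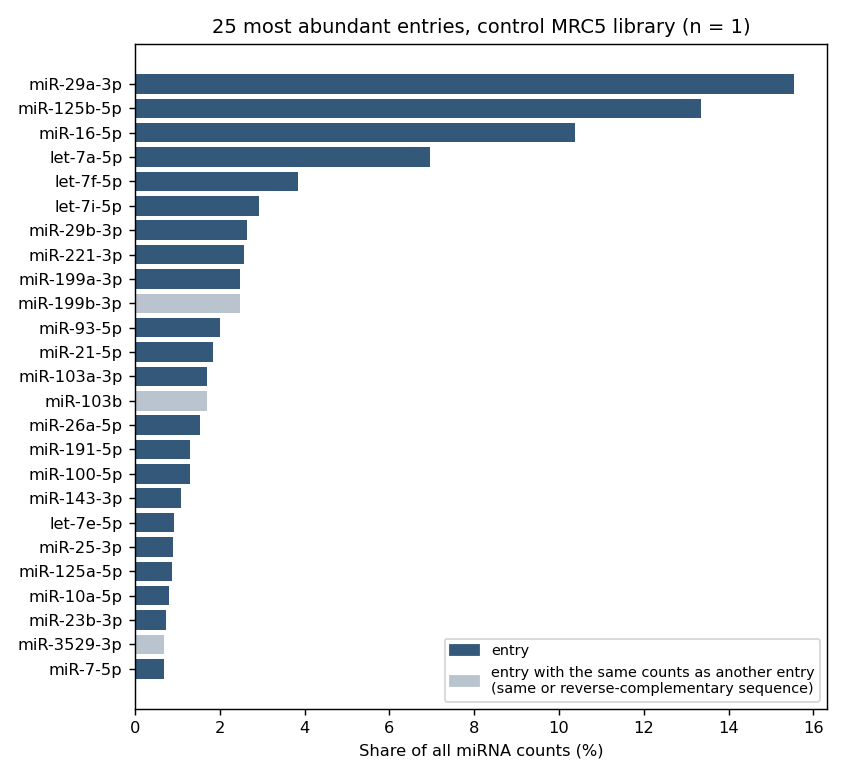
Share of all miRNA counts (%) for the 25 most abundant entries of the control library, 1 bar per entry. The bars fall from 15.6% for miR-29a-3p to 0.683% for miR-7-5p, and the 3 grey bars repeat the counts of another entry.

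On GRCh38.p14, miR-29a-3p lies at chr7:130876748-130876769 on the minus strand, outside the span of any RefSeq host gene. miR-125b-5p has a copy at chr11:122099809-122099830 (minus strand, inside the noncoding host MIR100HG) and one at chr21:16590253-16590274 (plus strand, inside MIR99AHG). miR-16-5p has a copy at chr13:50049027-50049048 inside the noncoding gene DLEU2 (minus strand) and one at chr3:160404754-160404775 (plus strand) inside SMC4. let-7a-5p has 3 copies, on chromosomes 9, 11 and 22. miR-21-5p lies at chr17:59841273-59841294 inside the span of VMP1 (plus strand), and miR-10a-5p at chr17:48579904-48579926 inside that of HOXB3 (minus strand). Spans were matched without regard to strand or exons.

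Some entries of the table carry the same reads. miR-199a-3p and miR-199b-3p have 1 sequence and 1 count, and miR-365a-3p and miR-365b-3p had 14082 counts each. Entries that are exact reverse complements of each other also had equal counts. This held for all 7 such sets with a count, in each of the 3 miRNA libraries of the series. Such sets could be found only among the 1641 entries with a RefSeq sequence. The most abundant sets are miR-103a-3p with miR-103b and miR-7-5p with miR-3529-3p, whose sequences are shown because each reads as the other on the opposite strand.
miR-103a-3p: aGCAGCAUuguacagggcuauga
miR-103b: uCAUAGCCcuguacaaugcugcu
miR-7-5p: uGGAAGACuagugauuuuguuguu
miR-3529-3p: aACAACAAaaucacuagucuucca
The strand of these reads cannot be told from the counts, so they do not show which entry of each set was present. Of 18 opposite-strand sets in RefSeq that overlap by at least 10 bases at an offset, 0 had equal counts. In each, the more abundant entry exceeded 3 counts. Some were far apart, as miR-24-3p with 137075 counts against 6103 for miR-3074-5p. In some the scarcer entry had no count, as miR-374c-5p against 473 for miR-374b-3p. Others were near, as miR-203a-3p with 8 counts against 7 for miR-203b-5p. Unequal counts cannot tell whether sets at an offset share some of their reads. Counting each identical or exactly reverse-complementary set a single time removes 1106576 counts (4.97%) and leaves a total of 21171060. The 10 most abundant then hold 65.9% in place of 63.1%.

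Seed groups show how narrow the seed use was. Of 1358 seeds among the 1641 entries with a RefSeq sequence, which held 98.6% of the counts, the 10 with the most counts held 74.7% and the leading 4 held 59.3%. The miR-29 seed held 18.4% (4094025 counts), let-7 15.9%, miR-125 14.2% and miR-15/16 10.8%. The 6 groups after them were miR-199-3p (4.96%, or about the share of a single entry if the repeated count is removed), miR-221/miR-222 (2.60%), miR-17 (2.27%), miR-99/100 (1.90%), miR-21 (1.85%) and miR-103/miR-107 (1.80%).

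In most of these groups 1 member dominated. miR-29a-3p made up 84.6% of the miR-29 group, and was 5.91-fold above miR-29b-3p (interval 5.89 to 5.92), which in turn was 13.9-fold above miR-29c-3p with its 42073 counts. miR-125b-5p was 15.5-fold above miR-125a-5p and made up 94.0% of its group. miR-16-5p made up 96.0% of the miR-15/16 group, where miR-424-5p had 41125 counts, miR-15b-5p 36930 and miR-15a-5p 17786, while miR-497-5p had only 135 and miR-195-5p 69.

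The let-7 family was the most evenly spread of the large groups. let-7a-5p held 43.7% of it, and its other members ranged from 854809 counts for let-7f-5p through 204706 for let-7e-5p, 126178 for let-7g-5p and 109991 for let-7b-5p to 25588 for let-7d-5p. miR-98-5p had 13334 counts and let-7c-5p 11863, and miR-4458, which shares the seed but not the family name, had 26. All 9 family members named by the list were above 100 CPM, against 176 of all 1853 entries at 100 CPM or more.

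**Figure D3:**
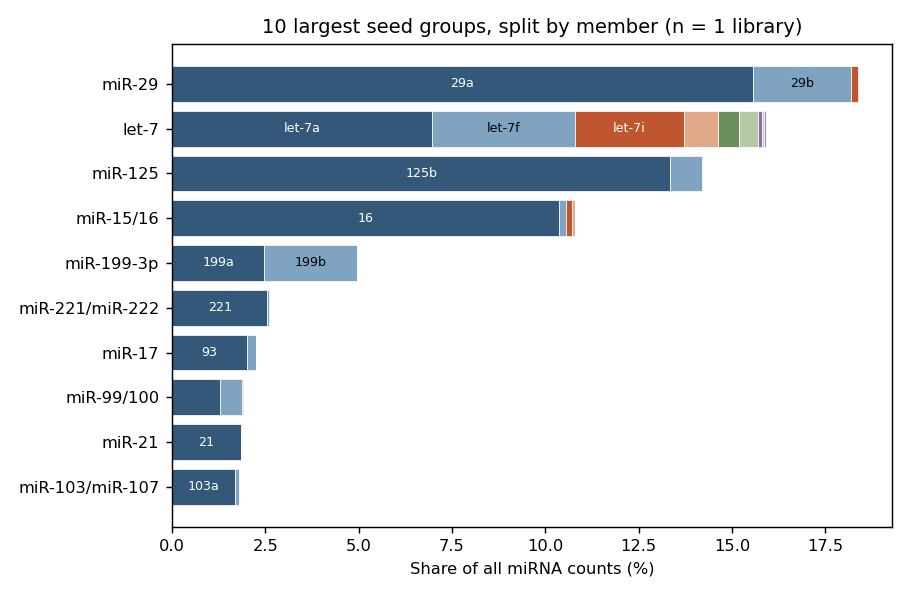
Share of all miRNA counts (%) for the 10 seed groups with the most counts in the control library, each bar split by member in order of count, with members above 1.4% named. 1 member fills most of each bar, from 68.0% for miR-100-5p upward, apart from let-7, where let-7a-5p holds 43.7%, and miR-199-3p, where the 2 entries repeat 1 count.

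Other families differed in the same way between close relatives. miR-10a-5p, encoded among the HOXB genes, had 177048 counts and miR-10b-5p, encoded among the HOXD genes, had 152, a ratio of 1165 (994 to 1375). The HOX-cluster miRNAs miR-196a-5p and miR-196b-5p had 8 and 56 counts. In the miR-17 family, miR-93-5p had 446420 counts and miR-20a-5p 52419, against 5356 for miR-17-5p, 281 for miR-106b-5p, 92 for miR-20b-5p and 63 for miR-106a-5p. miR-26a-5p was 120-fold above miR-26b-5p. The miR-23 and miR-27 families were closer to even, with miR-23b-3p 2.59-fold above miR-23a-3p and miR-27a-3p 1.34-fold above miR-27b-3p.

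A further 5 families each held at most 1.05% of the counts. The miR-30 family, a group with roles in many differentiated tissues, held 0.141% over 5 members, all 5p arms. They ranged from 9475 counts for miR-30b-5p to 1407 for miR-30e-5p. The miR-181 family, known in lymphocytes, held 0.00963% over 4 members, all 5p arms, led by miR-181a-5p with 1171 counts. The 3p arms of miR-181a, which are not in this sum, had 10232 counts. The miR-25/92 family held 1.05%, most of it miR-25-3p, with miR-92a-3p at 33376 counts. The miR-130/miR-301 family held 0.551% and the miR-148/miR-152 family 0.410%, led by miR-130a-3p (90465 counts) and miR-152-3p (59799 counts).

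Arm use was one-sided in most hairpins. Entries were joined into hairpins by name, with copies that share a mature miRNA joined into 1, which gave 565 hairpins with both arms listed, 234 of them with at least 100 counts over both arms. In 165 of the 234 (70.5%) the major arm held at least 90% of the counts, and in 84 at least 99%. The major arm held 98.1% of all counts in these hairpins and the median over hairpins was 97.5%. By number the sides were close: the 5p arm was the major one in 123 hairpins (52.6%), the 3p arm in 110, and 1 was tied. The tie is miR-3913, whose arms are reverse complements of each other. By counts, 58.8% came from 5p arms.

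The most abundant hairpins were among the most one-sided. miR-29a gave 3465180 counts from its 3p arm and 287 from its 5p arm (0.00828%). miR-125b gave 2973897 from the 5p arm and 3598 from the 3p arm, and miR-16 gave 2309146 and 598. In let-7a, let-7f and let-7i the 5p arm held 99.9%, 99.6% and 99.7%, and in miR-29b and miR-221 the 3p arm held 99.2% and 99.95%. The exceptions among the 10 hairpins with the most counts were miR-199a, with 118936 counts from the 5p arm and 551942 from the 3p arm (82.3%), and miR-199b, with 74369 and the same 551942. Because that 3p count is shared, the arm shares of both hairpins are uncertain. The immune-linked miR-155 had 138015 counts from its 5p arm and 27 from its 3p arm.

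In 38 of the 234 hairpins the major arm held under 75%. Those with the most counts were miR-15b (36930 from the 5p arm and 13581 from the 3p arm, 73.1% 5p), miR-493 (69.4% 3p), miR-299 (12546 and 14884, 54.3% 3p), miR-369 (63.9% 5p) and miR-490 (67.5% 3p). Of these, miR-493, miR-299 and miR-369 belong to the imprinted chromosome 14 cluster. miR-423 also came from both arms, with 6179 counts at 5p and 4747 at 3p, but its 5p count is shared with the opposite-strand entry miR-3184-3p.

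Relatives with the same seed could differ in their major arm. In the miR-30 family the 3p arm led in miR-30a (9804 against 5994 counts) and miR-30e (6372 against 1407), whereas the 5p arm led in miR-30c (7687 against 1772) and miR-30d (6943 against 526). In the miR-17 family the 5p arm held 99.8% of miR-93 and 93.1% of miR-17, whereas the 3p arm held 88.2% of miR-106b. In miR-181a the 3p arms had 10232 counts and the 5p arm 1171. The choice of these hairpins followed from their values.

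**Figure D4:**
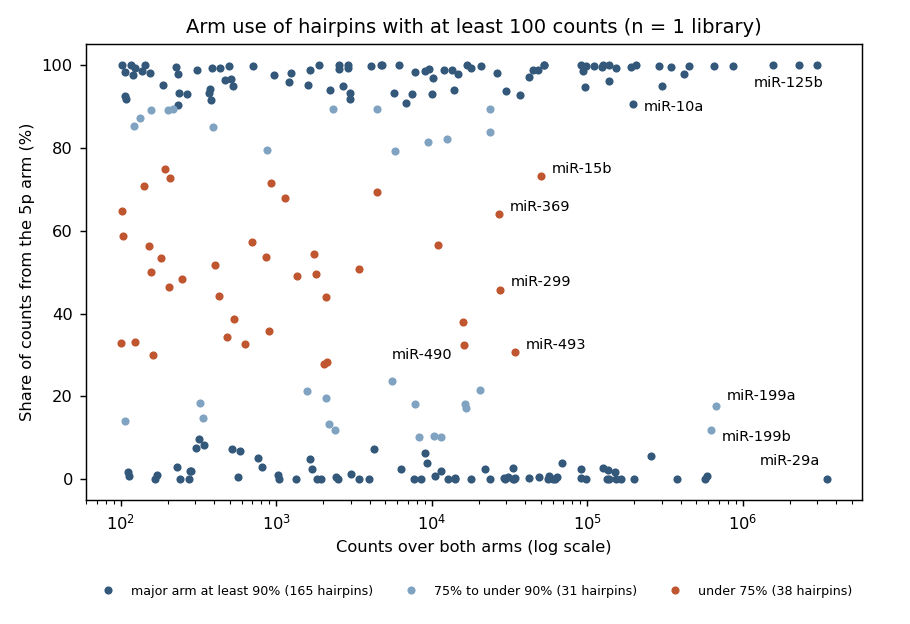
Share of counts from the 5p arm (%) against the counts over both arms (log axis) for the 234 hairpins with at least 100 counts in the control library, coloured by the share of the major arm. Most points lie near 0 or 100%, and the 38 orange points with a major arm under 75% include miR-299 and miR-369.

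Where several gene copies encode 1 mature sequence, the opposite arm can tell the copies apart. miR-125b-1-3p, from the copy in MIR100HG on chromosome 11, had 3590 counts and miR-125b-2-3p, from the copy in MIR99AHG on chromosome 21, had 8, a ratio of 449 (227 to 1040). The neighbours of both copies had counts in the same order: miR-100-5p on chromosome 11 had 287602, and miR-99a-5p and let-7c-5p on chromosome 21 had 2758 and 11863. For miR-29b, the arm from the chromosome 7 copy beside miR-29a had 4499 counts and the arm from the chromosome 1 copy beside miR-29c had 17. miR-7-1-3p had 1098 counts and miR-7-2-3p 3 (ratio 366, interval 125 to 1778). The copies of miR-16 and miR-26a were nearly even in this measure, with 357 and 241 counts for miR-16-1-3p and miR-16-2-3p and 823 and 692 for miR-26a-1-3p and miR-26a-2-3p. An opposite arm is a measure of both its making and its decay, so these counts are not the output of each gene copy.

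Hairpins of 1 cluster did not have equal mature levels. Whether they were cut from 1 primary transcript was not tested, nor was the part of adapter ligation in these ratios. In the miR-99b/let-7e/miR-125a cluster on chromosome 19, within 710 bases, the counts were near one another: 132487 for miR-99b-5p, 204706 for let-7e-5p and 191331 for miR-125a-5p. In the miR-221/miR-222 cluster on the X chromosome, miR-221-3p was 61.5-fold above miR-222-3p (60.2 to 62.8), although the hairpins lie within 915 bases and the miRNAs share a seed. In the miR-106b/25 cluster, miR-93-5p had 446420 counts and miR-25-3p 199250, but the more abundant arm of miR-106b had only 2092. The smooth muscle and mesenchymal miRNAs miR-143-3p and miR-145-5p, neighbours on chromosome 5, had 240620 and 34047 counts, a ratio of 7.07 (6.99 to 7.15). miR-214-3p had 695 counts, beside 551942 for miR-199a-3p, which is encoded near it but also has a copy on chromosome 19 and shares its count with miR-199b-3p. In the miR-424/miR-503 cluster on the X chromosome the counts ran from 44153 for miR-503-5p and 41125 for miR-424-5p to 754 for miR-450a-2-3p. The oncogenic miR-17/92 cluster on chromosome 13 had 52419 counts for miR-20a-5p, 5356 for miR-17-5p, 3381 for miR-19a-3p and 2092 for miR-18a-5p. miR-19b-3p and miR-92a-3p, each with a further copy on the X chromosome, had 34403 and 33376.

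Markers of fibroblasts were present at high levels, but the list was chosen with earlier results of these data known and is no independent check of the label. Of 12 miRNAs known to be abundant in fibroblasts and smooth muscle, 10 were at 1000 CPM or more, against 71 of all 1853 entries, and together the 12 held 21.7% of the counts, of which miR-125b-5p made up 61.4%. Besides those given above, miR-22-3p had 88718 counts, miR-199a-5p 118936 and miR-199b-5p 74369. The exceptions were miR-214-3p at 695 counts and miR-10b-5p at 152.

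The lists for other tissues held 84 miRNAs, 66 of which are in the table; the other 18 are not analysed here. Of the 66, 17 had no count, 25 had at most 3 counts and 52 were under 10 CPM. The same shares over all 1853 entries were no smaller: 53.0% of all entries and 37.9% of these had at most 3 counts, and 82.0% and 78.8% were under 10 CPM. In RNA from a whole culture, a few cells with a high level and many cells with a low level cannot be told apart.

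Apart from 1 member, the epithelial list was below 10 CPM, as were 82.0% of all entries. Its median was 19 counts, against 3 counts over all entries. At most 3 counts were found in 2 of its 12 members, against 53.0% of all entries. By these last measures the epithelial list was not low against the whole table. The miR-200 family and miR-141 guard the epithelial state by repressing ZEB factors, and had 12 counts for miR-200a-3p, 21 for miR-200b-3p, 50 for miR-200c-3p, 33 for miR-141-3p and 17 for miR-429, or 0.539 to 2.24 CPM. miR-205-5p had 11 counts, miR-203a-3p 8, and miR-375-3p and miR-449b-5p none. The exception was miR-34c-5p, a p53 target also known from ciliated cells, with 2538 counts (114 CPM), while its neighbour miR-34b-5p had 44. Without miR-34c-5p the epithelial list summed to 218 counts.

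Placental, germline and muscle miRNAs were the lowest lists, with medians of 0, 1 and 5 counts against 3 over all entries. At most 3 counts were found in 7 of 7, 7 of 9 and 3 of 6 analysed members, against 53.0% of all entries. The muscle list was thus not low against the whole table. The list for the chromosome 19 placental cluster had 1 count over its 7 analysed entries, for miR-526b-5p. This list does not hold every entry of that cluster. The germline and pluripotent list had 27 counts over 9 entries, led by miR-302b-3p with 16, and miR-302c-3p, miR-372-3p and miR-373-3p had none. In the striated muscle and heart list, miR-1-3p had 153 counts, miR-499a-5p 16, miR-133a-3p 8, miR-206 2 and miR-133b 1, and miR-208b-3p had none. miR-122-5p, which makes up much of the miRNA of liver, had 503 counts (22.6 CPM), near miR-194-5p with 494 and below miR-192-5p with 949, while miR-802 had none. The entry miR-122b-3p had 477 counts, and whether it shares reads with miR-122-5p was not tested.

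**Figure D5:**
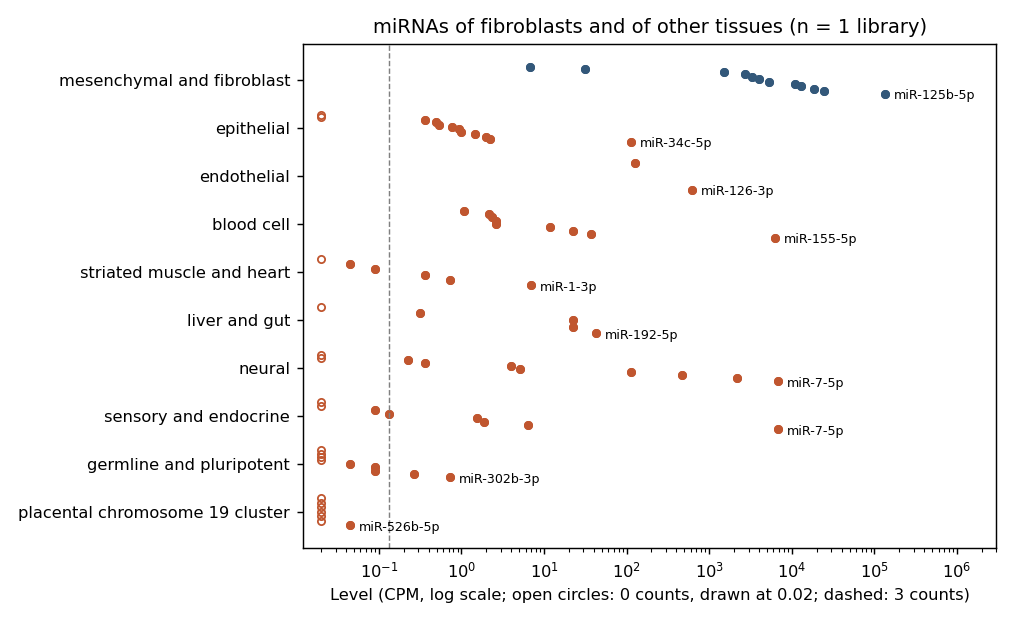
Level in CPM (log axis) of each listed marker miRNA in the control library, by list, with entries at 0 as open circles at the left edge, the level of 3 counts dashed and the highest member named. The fibroblast list lies mainly above 1000 CPM, and the placental list has 1 entry above 0.

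Blood cell and endothelial miRNAs were mixed. miR-155-5p, induced in activated immune cells but also made by fibroblasts, had 138015 counts (6195 CPM), 98.7% of the blood cell list. The other 8 members ranged from 24 to 837 counts: miR-451a of red cells had 837, miR-486-5p 501, miR-142-3p 262, miR-223-3p 52 and miR-150-5p 48. The endothelial miR-126, from an intron of EGFL7, had 13655 counts for its 3p arm (613 CPM) and 2841 for its 5p arm. Whether these reads came from MRC5 cells was not tested.

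Of the neural list, 4 of 10 analysed members were above 100 CPM, against 176 of all 1853 entries at 100 CPM or more. The 4 were miR-7-5p with 152128 counts, which it shares with its opposite-strand entry, miR-128-3p with 48492 (2177 CPM), miR-137-3p with 10448 (469 CPM) and miR-138-5p with 2517 (113 CPM). The other 6 analysed had at most 115 counts: miR-129-5p had 115, miR-9-5p 88, miR-9-3p 8 and miR-153-3p 5, and miR-124-5p and miR-219a-5p had none. The brain miRNA miR-124-3p is among those not analysed here. In the sensory and endocrine list, the clustered miR-182-5p, miR-183-5p and miR-96-5p had 144, 42 and 34 counts, and miR-204-5p, an eye miRNA, had none.

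The first base was described by level. A U as the 5′-most base, which Argonaute proteins prefer, was found in 56% of the 100 most abundant entries with a sequence, in 38.6% of those with at least 100 counts, in 39.1% of all 1641 and in 38.0% of the 872 with at most 3 counts. The higher share was thus seen in the 100 most abundant and not in the wider set with at least 100 counts. Weighted by counts, U stood at the 5′ end of 76.3%, or of 55.4% without the 4 most abundant entries, all of which start with U. G was the rarest base there, at 1.82% of the counts and 12.4% of the entries. The median GC content was 46.5% in the 100 most abundant and 54.5% in those with at most 3 counts, and 61% and 44.0% were 22 bases long. Entries of 1 family share their sequence, so these shares are a description.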

How the data were processed

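Small RNA of MRC5 cells was sequenced with an Illumina TruSeq small RNA kit, per the labels' protocols. The authors deposited whole-number counts per mature miRNA, per the file headers, which were used as deposited. A column headed CPM in the deposited file is treated as a score, because it sums to 955322 and equals the counts times 1 constant. fastp 0.20.0, HISAT2 2.1.0, featureCounts 2.0.1, edgeR 3.36.0 and the build hg38 are named in the submitters' processing notes with no role. No source used here gives the miRNA aligner, strand setting or miRBase release.

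The control library was assigned from its title, and its column from the library name. Shares and ratios carry exact 95% intervals (scipy 1.17.1). Without molecular identifiers, reads of 1 molecule can be counted repeatedly, so intervals and floors cover counting error only. Sequences came from RefSeq (GRCh38.p14), matched by name for 1641 of 1853 entries; entries without one were left out of seed groups. All 1210 arm names that could be placed matched their side of the hairpin. Named miRNAs are the 25 most abundant, the 10 largest seed groups, the 10 hairpins with the most counts, the 5 with the most counts under 75%, and the members of 1 marker, 9 tissue, 17 family and 18 cluster lists. Members and lists were chosen with earlier results of these data known. Interval and arm steps were tested on simulated data. The mRNA table was not used.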

Additional observations from a re-analysis of the deposited data

How the results depend on the processing

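No paired analysis was possible because the description rests on 1 library and no groups were compared, and for the same reason no replicate could be left out. Of 25 alternatives, 13 stayed within 1.5 times a count or within the interval of a share, and 12 moved further. For the share of hairpins led by the 5p arm, that interval took hairpins as independent draws. Hairpins are not replicates, so it does not measure counting error. Most moves follow from the construction of the alternative. The 1355 miRNAs with a count became 870 at 4 or more counts, 683 at 10 or more and 334 at 10 CPM or more. The share of the 10 most abundant went from 63.1% to 58.7% when miR-29a-3p was left out and the next 10 were taken. Without miR-29a-3p, the let-7 family went from 15.9% to 18.9% and the miR-29 family from 18.4% to 3.34%. With identical and reverse-complementary entries counted a single time, an alternative chosen after seeing the data, the shares became 65.9% for the 10 most abundant, 16.8% for let-7, 19.3% for miR-29 and 76.0% for the 10 largest seed groups, against 74.7% as deposited. Seeds of bases 2 to 7 gave 74.9% for those groups. The tissue list miRNAs at or under 3 counts numbered 25, and 52 were under 10 CPM. The share of hairpins led by the 5p arm ranged from 49.0% to 53.4% over its alternatives. The authors' normalized column gave the same share of 63.1%. Depth limits the scarce entries: 485 rest on 1 to 3 counts.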

Other observations

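The imprinted miRNA clusters of chromosome 14, expressed from the maternal chromosome and known in embryonic and mesenchymal tissue, had counts for most entries. Of 91 entries encoded in the cluster region and on no other chromosome, a region that ran from base 100814551 to base 101066786 of chromosome 14 (GRCh38.p14), 89 had a count, 65 had at least 100 counts and 16 were at 1000 CPM or more, against 1355, 401 and 71 of all 1853 entries. Together they held 1298222 counts, 5.83% of the library (5.82 to 5.84). The leading members were miR-127-3p with 146944 counts, miR-376a-3p with 133615, miR-382-5p with 123221 and miR-409-3p with 122211, so that no member led as miR-29a-3p or miR-16-5p led their groups.

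Entries numbered from 1000 upward, most of which were catalogued from later sequencing, made up 1090 of the 1853 listed and 1.16% of the counts. The median was 1 count, against 59 counts for the 763 entries with lower numbers. Without entries that repeat another sequence or its reverse complement, the share was 0.448%. The leading entries of these were miR-1185-1-3p of the chromosome 14 cluster with 24974 counts, miR-1260a with 10153 and miR-12135 with 7168.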
